A study of Mus musculus with 6 samples.

Results

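The genes described here make cholesterol or control its level: the mevalonate and sterol synthesis enzymes, the SREBP2 control genes, and the liver X receptors with genes of sterol storage. They came from a fixed list chosen with earlier results of these data known. Its rule used no measured values and took 27 genes by symbol. Of these, 26 had a row among the 23225 gene rows of the count table, and all 26 were among the 15958 genes that passed the filter on low counts. Hmgcs1, the synthase at the entry of the mevalonate pathway, had no row and was not analysed here.

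The libraries were made from total RNA of dendritic cells sorted from ID8 tumours of C57BL/6 mice on day 23. ID8 cells are an ovarian tumour line of that strain, and the source of the sorted cells is labelled as ascites. The 3 XBP1-KO libraries came from mice with a conditional deletion of XBP1 in CD11c-positive cells, and the 3 WT libraries from wild type mice of the same background. Other CD11c-positive cells of these mice can carry the deletion too, and the sources used here give neither the sort gate nor the promoter that drives the deletion. RNA was isolated separately for each library. No label ties a library to an animal of its own, and p-values then reflect only how these libraries differed, which may be technical.

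Cholesterol is built from acetyl-CoA through mevalonate, isoprenoids, squalene and lanosterol. When sterol is scarce in the ER membrane, the carrier Scap brings the precursor of the transcription factor SREBP2 to the Golgi, where it is cut and released to switch on nearly every enzyme of the pathway. When sterol is plentiful, the Insig proteins hold Scap in the ER, and oxysterols activate the liver X receptors, which turn on export of cholesterol. XBP1 is a transcription factor of the ER stress response, formed when IRE1 splices its mRNA, and it is best known for genes of the secretory pathway.

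Library sizes ran from 26946349 to 32709100 counts. The targeted gene Xbp1 had 889, 916 and 1331 counts in XBP1-KO libraries a, b and c, against 1903, 1376 and 2300 counts in WT libraries a, b and c, with no overlap. The log2 fold change of -0.89 (SE 0.18) missed the threshold in edgeR's quasi-likelihood test (adjusted p = 0.0545), and passed under 8 of the 18 alternatives. The column headers carry no replicate number, so the letters only name libraries and pair nothing. Libraries XBP1-KO b and WT b stood apart on the second principal component, with scores of 30.1 and 38.3. The remaining 4 libraries had scores from -45 to -0.993. All 14 dendritic cell markers were detected, among them Cd74, the MHC class II invariant chain, at 56672 to 80024 CPM (TMM-normalised CPM, a count scaled to the size of its library) in XBP1-KO and 59850 to 99893 CPM in WT. Of these markers 11 lay lower in XBP1-KO, with a median log2 fold change of -0.21 and 0 called by edgeR's quasi-likelihood test. At an unadjusted p under 0.05, Ciita was lower and Itgax higher. The part of the dendritic cell markers in the levels of the sterol genes was not tested. All 13 tested T and NK cell markers lay higher in XBP1-KO, with 4 called (Cd3e, Lck, Nkg7 and Ncr1), and summed to 304, 387 and 250 CPM in XBP1-KO a, b and c, against 170, 169 and 156 CPM in WT. The sums of 7 B cell markers, at 366 to 524 CPM in XBP1-KO and 179 to 352 CPM in WT, and of 7 neutrophil markers, at 286 to 423 CPM in XBP1-KO and 90.9 to 237 CPM in WT, did not overlap either. Those of macrophage markers (5451 to 6356 CPM in XBP1-KO, 4824 to 5996 CPM in WT), mast cell markers (112 to 150.4 CPM in XBP1-KO, 97.2 to 165 CPM in WT) and of epithelial and mesothelial markers (107 to 189 CPM in XBP1-KO, 127 to 170 CPM in WT) overlapped. The macrophage sum rests largely on C1qb, at 2913 to 3663 CPM in XBP1-KO and 2250 to 3321 CPM in WT. Of 10 macrophage markers, 7 lay higher and 3 lower, with a median log2 fold change of 0.24 and 0 called. At an unadjusted p under 0.05 in edgeR's quasi-likelihood test, 2 of them were higher and 0 lower. Of 5 tested mast cell markers, 4 lay higher and 2 were called, Cma1 and Cpa3, with log2 fold changes of 1.25 and 1.21 (adjusted p = 0.0192 and 0.0440 by edgeR's quasi-likelihood test), while Kit had 63.5 CPM in XBP1-KO and 102 CPM in WT. No tested marker was at 0 in any library. In bulk samples, fewer cells of a type and less RNA per cell cannot be told apart.

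Most sterol synthesis enzymes lay a little lower in XBP1-KO, and none passed the test over all genes. Of the 17 enzymes with a row, 15 had a log2 fold change below 0, with a median of -0.22. The control genes split, with 4 of 9 below 0 and a median of 0.09. Over all genes tested, 43.9% lay below 0 and the median was 0.06. The test called 0 of the 26 genes, where it called 0.445% of all genes (71 of 15958), 0.288% lower and 0.157% higher. At an unadjusted p under 0.05, 4 of the 26 were lower (Acat2, Idi1, Lss and Cyp51) and 0 higher, which is 15.4% lower where all genes gave 8.26% lower and 4.59% higher. The values of 6 of the 26, all of them enzymes, lay lower in every XBP1-KO library than in any WT library, and 0 lay higher in every one. That is 23.1%, beside 10.4% of all genes on the lower side and 8.8% on the higher side. Many of the enzymes rose and fell together across libraries, as described below, so such counts do not add up independent genes.

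**Figure D1:**
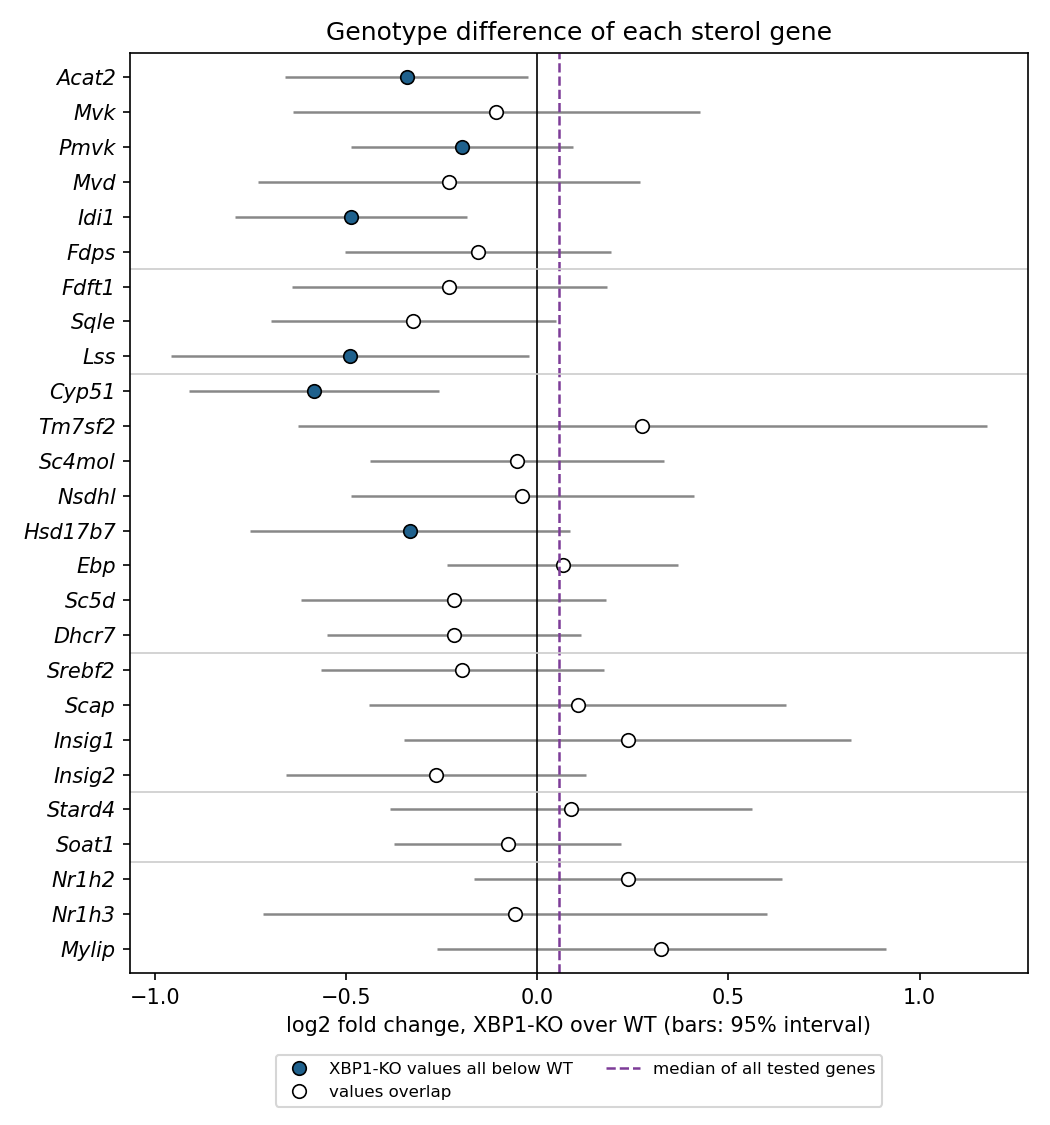
The log2 fold change of each of the 26 genes, XBP1-KO over WT, from edgeR's quasi-likelihood fit to 3 libraries of each genotype, with bars for the 95% interval and genes in the order of the pathway. Filled points mark the 6 genes whose XBP1-KO values all lay below every WT value; the dashed line is the median of all tested genes, 0.06.

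The largest difference was that of Cyp51, lanosterol demethylase, the first enzyme to act on lanosterol. Its level was 91.9, 66.8 and 79.8 CPM in XBP1-KO libraries a, b and c, against 116, 105 and 136 CPM in WT libraries a, b and c. Every XBP1-KO library lay below every WT library. The log2 fold change of -0.58 (SE 0.15), or 33.3% less, had an interval from -0.91 to -0.26 and did not pass edgeR's quasi-likelihood test (adjusted p = 0.106). Cyp51 passed with DESeq2 (adjusted p = 0.0279), with no filter on low counts (0.047) and with a term for libraries XBP1-KO b and WT b (0.025). No label sets those b libraries apart from the others. Cyp51 was itself lowest in the b library of each genotype, so that term took up part of its own spread. Its SE was 0.11 with the term and 0.15 without it. Cyp51 was the only one of the 26 genes called under any alternative tried, and over these its adjusted p ran from 0.025 to 0.442. DESeq2 called 2.29% of all genes lower, the fit with a term for the b libraries 2.09%, and the fit without the filter 0.822%.

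Idi1, the isomerase that interconverts the isoprenoid building blocks, had the next smallest p. It had 153, 122 and 116 CPM in XBP1-KO a, b and c, against 197, 163 and 189 CPM in WT a, b and c, with no overlap. The log2 fold change of -0.49 (SE 0.14, interval -0.79 to -0.18) did not pass edgeR's quasi-likelihood test (adjusted p = 0.145). Without libraries XBP1-KO b and WT b the log2 fold change was -0.54 for Idi1 and -0.58 for Cyp51. Neither passed there, with adjusted p-values of 0.12 and 0.103 in the same test.

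The mevalonate pathway turns acetyl-CoA into farnesyl diphosphate, and all 6 of its measured enzymes lay below 0, from -0.49 to -0.11. Acat2, the cytosolic thiolase that joins acetyl-CoA units, had 33.4, 34.5 and 35.8 CPM in XBP1-KO and 46.9, 37.3 and 47.2 CPM in WT, a log2 fold change of -0.34 (SE 0.15). The XBP1-KO libraries were close together and below every WT library. Pmvk, phosphomevalonate kinase, also did not overlap, with 42.2, 39.3 and 43.1 CPM in XBP1-KO and 45.4, 46.4 and 51.0 CPM in WT. Its log2 fold change was -0.20 (SE 0.13). Mvk, mevalonate kinase, had 20.1, 10.1 and 11.5 CPM in XBP1-KO, on both sides of the 16.2, 14.3 and 14.5 CPM of WT. Mvd, the decarboxylase that follows, had the same shape, with 26.3, 16.1 and 15.8 CPM in XBP1-KO and 24.97, 17.4 and 25.9 CPM in WT. In both genes XBP1-KO a was the highest of the 6 libraries, and the other XBP1-KO libraries lay below every WT library. Fdps, which makes farnesyl diphosphate, had 78.6, 54.4 and 59.7 CPM in XBP1-KO and 73.7, 61.7 and 79.1 CPM in WT. Apart from Idi1, adjusted p-values of this group lay between 0.348 and 0.885 in edgeR's quasi-likelihood test.

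The 3 enzymes of squalene and lanosterol synthesis all lay below 0. Lss, which folds the squalene epoxide into lanosterol, had 15.4, 10.1 and 18.9 CPM in XBP1-KO, against 21.6, 20.2 and 20.5 CPM in WT. The WT libraries were close together, and every XBP1-KO library lay below them. Its log2 fold change of -0.49 (SE 0.22) did not pass edgeR's quasi-likelihood test (adjusted p = 0.363) and was -0.31 without libraries XBP1-KO b and WT b. Sqle, squalene epoxidase, had 50.3, 33.1 and 42.2 CPM in XBP1-KO and 56.4, 44.3 and 56.6 CPM in WT. Fdft1, squalene synthase, had 74.7, 52.0 and 62.7 CPM in XBP1-KO and 80.8, 54.2 and 86.9 CPM in WT. In both, WT b lay inside the range of the XBP1-KO libraries. Their log2 fold changes were -0.32 (SE 0.17) for Sqle and -0.23 (SE 0.19) for Fdft1.

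Between lanosterol and cholesterol the enzymes differed among themselves, with log2 fold changes from -0.58 for Cyp51 to 0.27 for Tm7sf2. Hsd17b7, the ketoreductase of the C4 demethylation complex, had 11.5, 11.1 and 9.38 CPM in XBP1-KO and 12.6, 12.6 and 15.1 CPM in WT. It did not overlap, with a log2 fold change of -0.33 (SE 0.19). Its partners in that complex lay near 0. Sc4mol, the methyl oxidase now named Msmo1, had 113, 90.6 and 102 CPM in XBP1-KO and 115, 76.1 and 126 CPM in WT. Nsdhl, the decarboxylase, had 50.1, 31.4 and 40.4 CPM in XBP1-KO and 47.1, 30.8 and 47.3 CPM in WT. The log2 fold changes were -0.05 (interval -0.44 to 0.33) for Sc4mol and -0.04 (-0.49 to 0.41) for Nsdhl, and both lay above 0 with library size alone and with upper quartile scaling. Cyp51 acts earlier in the pathway than this complex, and the difference between its fold change and theirs was not tested.

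Tm7sf2, a sterol C14 reductase, had the largest standard error of the 26 genes. It had 8.53, 3.14 and 4.95 CPM in XBP1-KO and 3.88, 2.83 and 6.98 CPM in WT. Ebp, the sterol isomerase, was at 154, 134 and 143 CPM in XBP1-KO and 151, 113 and 147 CPM in WT. These were the enzymes with a log2 fold change above 0, at 0.27 (SE 0.41) for Tm7sf2 and 0.07 (SE 0.14) for Ebp. Sc5d, the C5 desaturase, averaged 88.3 ± 14.8 CPM in XBP1-KO and 103 ± 23.8 CPM in WT (SD, n = 3 each). Dhcr7, the C7 reductase, averaged 39.1 ± 3.38 CPM in XBP1-KO and 45.5 ± 7.17 CPM in WT (SD, n = 3 each). Both had a log2 fold change of -0.22 with overlapping values.

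**Figure D2:**
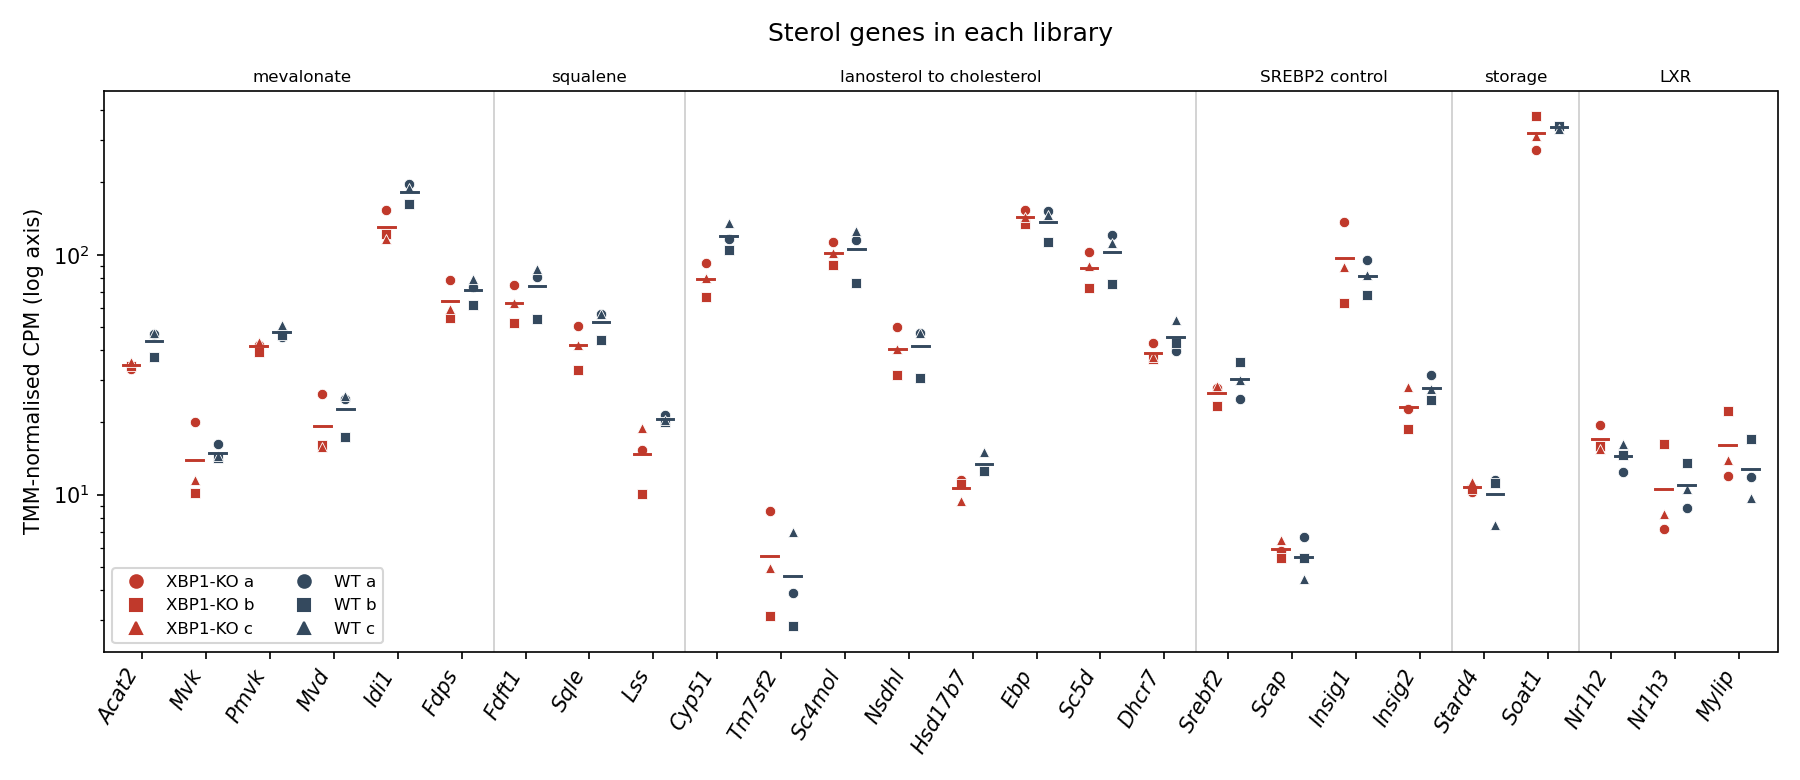
Level of each gene in each library, in TMM-normalised CPM on a log axis, with XBP1-KO left of WT for each gene and a short line at the mean of the 3 libraries. Cyp51, Idi1, Lss, Acat2, Pmvk and Hsd17b7 show no overlap, and in most enzymes the square of library b is the lowest of its genotype.

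The genes that sense sterol and release SREBP2 gave no common direction. Srebf2, which encodes SREBP2, had 27.7, 23.3 and 28.3 CPM in XBP1-KO and 25.04, 35.6 and 30.2 CPM in WT, a log2 fold change of -0.20 (SE 0.17). Scap, its sterol-sensing escort, had 5.82, 5.46 and 6.49 CPM in XBP1-KO and 6.64, 5.45 and 4.44 CPM in WT, the lowest level per length of the 26. Insig1, an ER retention factor that is itself a known SREBP target, had 137, 63.2 and 89.2 CPM in XBP1-KO and 95.04, 68.0 and 82.6 CPM in WT. XBP1-KO a was the highest of the 6 libraries and XBP1-KO b the lowest, so the log2 fold change of 0.24 (SE 0.26) was -0.11 without XBP1-KO a. Insig2, the related retention factor, had 22.8, 18.9 and 28.1 CPM in XBP1-KO and 31.5, 24.9 and 27.5 CPM in WT, with a log2 fold change of -0.26 (SE 0.18). Adjusted p-values of these genes lay between 0.579 and 0.89 in edgeR's quasi-likelihood test.

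Storage and transport of sterol showed values near those of WT. Soat1, which esterifies cholesterol for lipid droplets, had 273, 378 and 313 CPM in XBP1-KO, spread around the narrow 340, 345 and 333 CPM of WT. Its log2 fold change of -0.08 had an interval from -0.37 to 0.22. Stard4, a carrier that moves sterol between membranes, had 10.2, 10.6 and 11.3 CPM in XBP1-KO and 11.5, 11.2 and 7.48 CPM in WT, a log2 fold change of 0.09 (SE 0.22). Neither gene passed, with adjusted p-values of 0.847 and 0.893 in edgeR's quasi-likelihood test.

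Among the liver X receptor genes, Nr1h2 encodes LXR-beta and Nr1h3 LXR-alpha. Nr1h2 had 19.6, 16.02 and 15.5 CPM in XBP1-KO and 12.5, 14.7 and 16.2 CPM in WT, with a log2 fold change of 0.24 (SE 0.19). Nr1h3 had 7.17, 16.2 and 8.28 CPM in XBP1-KO and 8.83, 13.6 and 10.6 CPM in WT, a log2 fold change of -0.06 (interval -0.72 to 0.60). Mylip, the LXR-induced ubiquitin ligase that degrades the LDL receptor, had 11.97, 22.3 and 13.99 CPM in XBP1-KO and 11.9, 16.99 and 9.65 CPM in WT. Its log2 fold change of 0.33 (SE 0.27) did not pass edgeR's quasi-likelihood test (adjusted p = 0.645) and was 0.0076 without XBP1-KO b. For Nr1h3, Mylip and Soat1 the b library was the highest of its genotype in both genotypes, the reverse of most enzymes.

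This split between libraries crossed the genotypes. XBP1-KO b was the lowest XBP1-KO library for 13 of 17 enzymes, and WT b the lowest WT library for 14 of 17. Both held for 11 of 17 enzymes (64.7%), where they held for 17.1% of all genes tested. No enzyme was highest in library b of either genotype. XBP1-KO a was the highest of its genotype for 14 of 17 and WT c for 12 of 17. The summed level of the 17 enzymes was 1067, 819 and 913 CPM in XBP1-KO a, b and c, against 1170, 917 and 1214 CPM in WT a, b and c. WT b therefore lay between XBP1-KO libraries, and the genotypes overlapped. The means were 933 ± 126 CPM in XBP1-KO and 1100.4 ± 160 CPM in WT (SD, n = 3 each), a log2 ratio of -0.24.

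**Figure D3:**
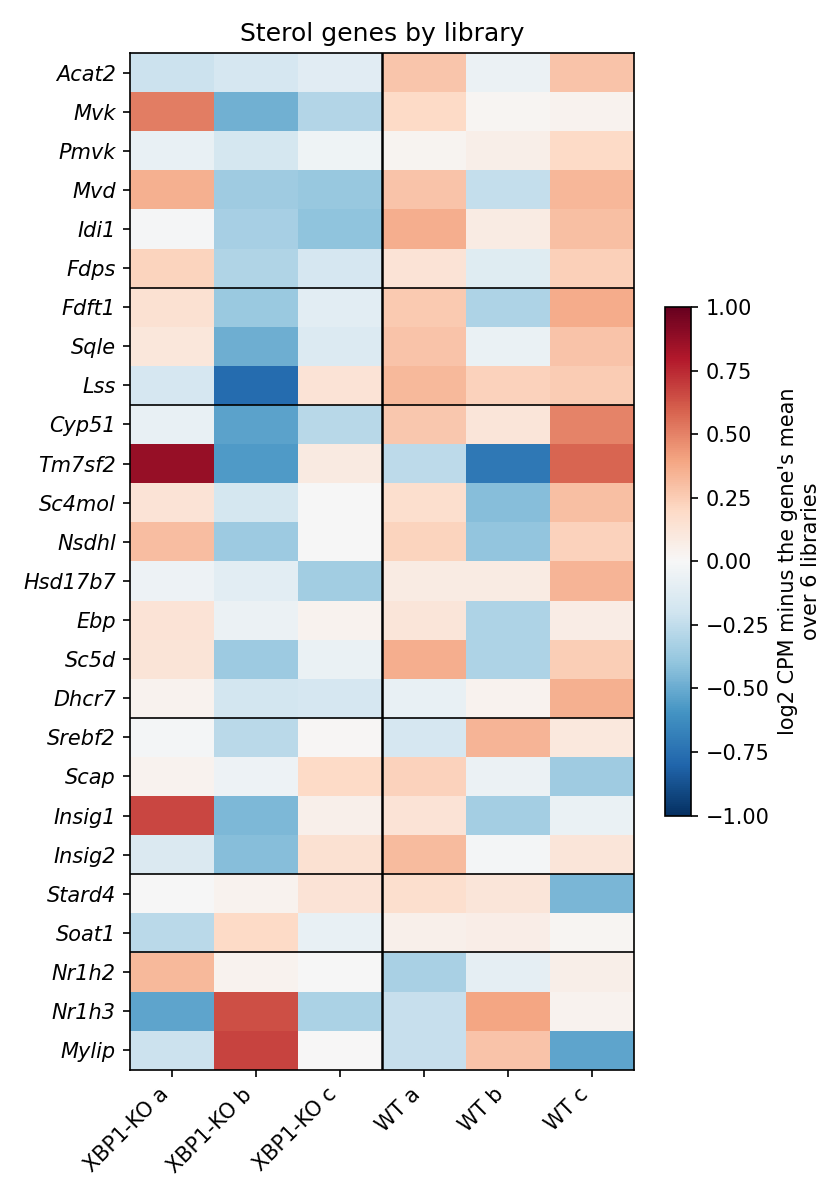
Log2 CPM of each gene minus its own mean over the 6 libraries, with XBP1-KO libraries left of WT libraries and lines between the groups of the pathway. The columns of XBP1-KO b and WT b are blue for most enzymes, while Nr1h3 and Mylip are red there, with Nr1h3 at 16.2 CPM in XBP1-KO b and 13.6 CPM in WT b.

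Some marker genes were also at an extreme in the b libraries. Over all genes tested, 18.9% were highest in library b of both genotypes and 17.1% were lowest there. Of the 14 dendritic cell markers, 4 were highest in library b of both genotypes (Zbtb46, Irf8, Clec9a and Xcr1). Another 4 were lowest there (Irf4, Cd74, H2-Aa and Cd209a). Xcr1 and Clec9a, which mark cross-presenting dendritic cells, were highest in the b library of each genotype. Xcr1 had 21.6, 115 and 62.1 CPM in XBP1-KO a, b and c, against 69.4, 171 and 66.8 CPM in WT a, b and c. Clec9a had 5.45, 21.6 and 16.1 CPM in XBP1-KO and 18.4, 36.6 and 13.1 CPM in WT. Batf3, a factor of the same cells, did not follow them, and was lowest in XBP1-KO b. H2-Aa, a chain of MHC class II, had 13356, 9752 and 11647 CPM in XBP1-KO and 14610, 9593 and 15567 CPM in WT, while its partner chain H2-Ab1 was lowest in XBP1-KO b and in WT a. Of the 13 T and NK cell markers, 9 were highest in library b of both genotypes. The part of these cell markers in the enzyme levels was not tested.

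Without libraries XBP1-KO b and WT b, 10 of 17 enzymes lay lower in both remaining XBP1-KO libraries than in both WT libraries, and 0 lay higher. These were the 6 named above with Fdft1, Sqle, Sc4mol and Sc5d. Over all genes 21.6% lay lower and 27.4% higher by that measure. XBP1-KO b was the lowest of its genotype for 13 of 17 enzymes and WT b for 14 of 17, beside 35.7% and 34.5% of all genes. Leaving both out thus removed the lowest values of the enzymes more often than those of other genes. The share of enzymes and that of all genes are therefore not a like comparison. Without both libraries the log2 ratio of the summed level was -0.27. With all 6 libraries, the summed levels of the T and NK cell, B cell and neutrophil markers did not overlap between the genotypes. In that fit 4, 0 and 0 of these markers and 2 mast cell markers were called, beside 0.445% of all genes. The part of these cells in the enzyme levels was not tested.

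**Figure D4:**
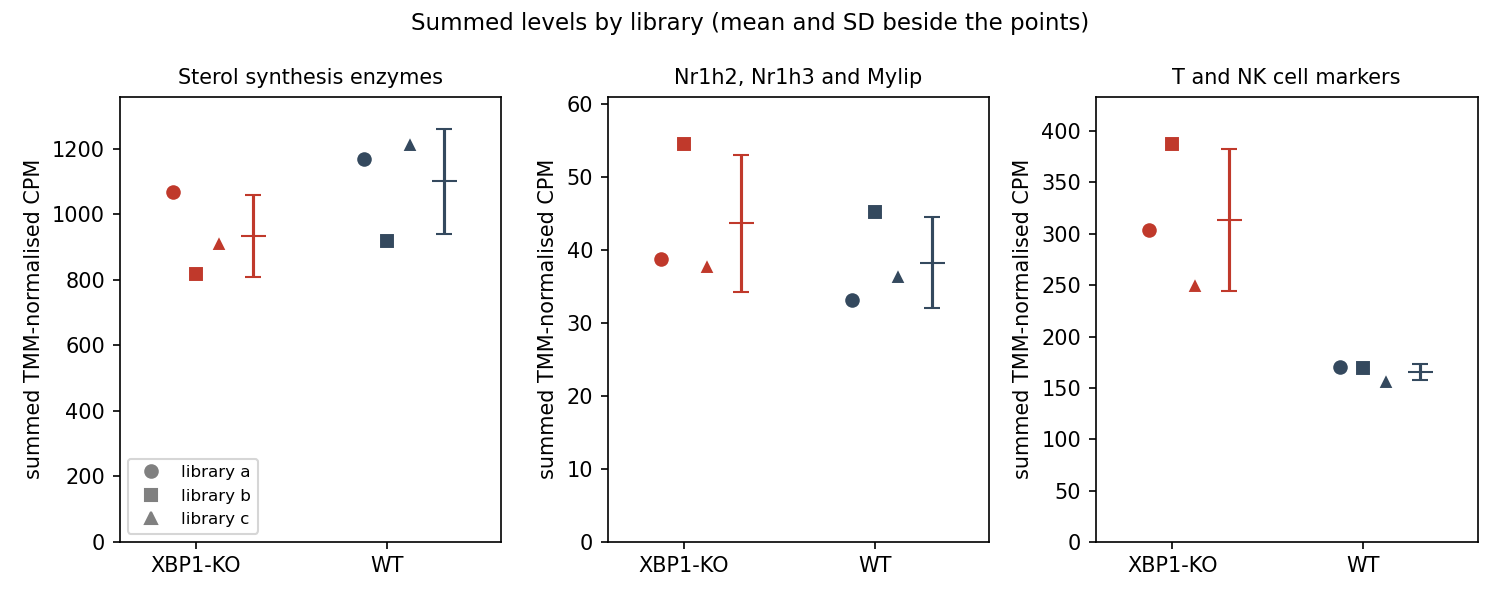
Summed TMM-normalised CPM in each library of the 17 sterol synthesis enzymes, of Nr1h2, Nr1h3 and Mylip, and of 13 T and NK cell markers, with XBP1-KO left of WT and the mean and SD (n = 3) beside the points. WT b, at 917 CPM for the enzymes, lies inside the XBP1-KO range of 819 to 1067 CPM, while the T and NK sums of 250 to 387 CPM in XBP1-KO lie above all of WT.

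Levels were set in order between genes only after division by the length in kilobases of the longest protein-coding transcript in GENCODE M21. That annotation is not the one behind the counts, so the order is approximate. Ebp was highest in both genotypes, at 82.3 ± 5.70 CPM per kilobase in XBP1-KO and 78.6 ± 12.2 in WT. Fdps, Sc4mol and Idi1 followed at 43.1 to 49.8 CPM per kilobase in XBP1-KO and 51.7 to 60.5 in WT. In XBP1-KO these did not differ among themselves beyond their spread. Soat1 came next in both genotypes, at 38.4 ± 6.34 CPM per kilobase in XBP1-KO and 40.5 ± 0.732 in WT. Hsd17b7, Stard4 and Scap were the lowest in both genotypes, at 1.402 to 2.31 CPM per kilobase in XBP1-KO and 1.30 to 2.91 in WT.

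Promoters were read because SREBP2 acts with the factor NF-Y, which binds the letters CCAAT, at many sterol genes. RefSeq promoters of mouse build GRCm38.p6, from 250 bases before to 50 after the start, were matched for 23 of the 27 genes, among them 15 enzymes with Hmgcs1. Fdps, Fdft1, Sqle and Stard4 were not matched. A CCAAT box on either strand was present for 19 of the 23 genes and 14 of the 15 enzymes, and for 41.1% of all genes in the promoter table. The enzyme without one was Acat2, and the other genes without one were Scap, Nr1h2 and Nr1h3. A GC box, GGGCGG, which Sp1 binds, was present for 20 of 23 genes and for 38.2% of all genes.

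The exact sterol regulatory element TCACNCCAC, searched on both strands, was present for Hmgcs1 alone, and for 1.44% of all genes. With 1 mismatched letter it was present for 12 of 23 genes and 26.7% of all genes. The core GACGTGG, which XBP1 can bind, was present for Insig1 alone, after the start site, and for 2.73% of all genes. The ER stress element, a CCAAT box followed at a fixed distance by CCACG, was present for 0 of the 23 and for 0.137% of all genes. Such matches describe letters in a window and no binding.

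The 120 bases before the start are shown for the enzymes with the 4 largest differences among those matched, and for Mvk, whose values overlapped. Capitals mark CCAAT or, on the other strand, ATTGG. All are written 5′ to 3′ on the strand of the gene. They lie at chr13:8885486-8885605 (plus strand) for Idi1, chr10:76531485-76531604 (plus) for Lss, chr5:4104698-4104817 (minus) for Cyp51, chr17:12960726-12960845 (minus) for Acat2 and chr5:114444149-114444268 (plus) for Mvk.
Idi1: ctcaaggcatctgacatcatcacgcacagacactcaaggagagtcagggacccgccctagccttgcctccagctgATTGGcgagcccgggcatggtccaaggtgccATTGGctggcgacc
Lss: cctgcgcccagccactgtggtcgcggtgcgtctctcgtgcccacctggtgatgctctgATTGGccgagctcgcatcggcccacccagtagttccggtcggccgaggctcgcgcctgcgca
Cyp51: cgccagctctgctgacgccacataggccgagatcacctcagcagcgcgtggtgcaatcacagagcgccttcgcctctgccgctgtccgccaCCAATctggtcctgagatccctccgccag
Acat2: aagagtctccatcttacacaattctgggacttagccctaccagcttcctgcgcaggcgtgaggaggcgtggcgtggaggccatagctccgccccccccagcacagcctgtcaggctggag
Mvk: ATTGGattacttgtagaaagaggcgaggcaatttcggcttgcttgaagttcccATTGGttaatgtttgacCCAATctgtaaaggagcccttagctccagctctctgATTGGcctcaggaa
Mvk held the most CCAAT boxes in this stretch, with 4, beside a log2 fold change of -0.11. Idi1 held 2, Lss and Cyp51 1 each, and Acat2 held 0 with a log2 fold change of -0.34. These 5 genes were picked, 4 by their difference and Mvk from several enzymes whose values overlapped. A link between the number of boxes and the difference was not tested.

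Other genes around the pathway were read from lists written with earlier results of these data known. Of 16 genes of the isoprenoid branch, which draws on the mevalonate pathway for protein prenylation and other products, 10 lay lower and 0 were called. Pggt1b, a subunit of an enzyme that prenylates proteins, had the smallest p of the list. It had 34.1, 37.2 and 29.98 CPM in XBP1-KO and 47.6, 47.1 and 55.0 CPM in WT, with no overlap (adjusted p = 0.106 by edgeR's quasi-likelihood test). Of 14 genes of SREBP cleavage and of sterol-linked ER degradation, 9 lay lower and 0 were called. At an unadjusted p under 0.05 in edgeR's quasi-likelihood test, 4 of the 14 were lower and 0 higher. That is 28.6% lower, where all genes gave 8.26% lower and 4.59% higher. Erlin2, an ER protein of that degradation complex, had 55.1, 86.6 and 81.0 CPM in XBP1-KO and 99.6, 122 and 100 CPM in WT, with an adjusted p of 0.196 in the same test.

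Of 19 genes of sterol transport inside the cell 11 lay lower, and of 6 tested enzymes that make or process oxysterols 1 lay lower, with 0 called in either list. The smallest p-values were those of Vapb, an ER tether, with a log2 fold change of 0.59 (SE 0.28), and of Hsd3b7, an enzyme of bile acid synthesis, with -0.24 (SE 0.13). Of 7 electron donors and accessory proteins 5 lay lower and 0 were called. Cyb5b, a cytochrome b5, had the smallest p there, with 62.2, 53.1 and 55.1 CPM in XBP1-KO and 72.6, 72.6 and 77.1 CPM in WT (adjusted p = 0.217 by edgeR's quasi-likelihood test).

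Of 15 tested partners and targets of the liver X receptors, 9 lay higher and 6 lower, where 8959 of all 15958 genes tested lay higher. At an unadjusted p under 0.05 in edgeR's quasi-likelihood test, 3 of the 15 were higher and 2 lower. After adjustment 1 of the 15 was called higher, beside 0.157% of all genes. This was Apoe, the lipid carrier apolipoprotein E, with 378, 413 and 404 CPM in XBP1-KO and 262, 216 and 223 CPM in WT, and a log2 fold change of 0.77 (adjusted p = 0.0242 by edgeR's quasi-likelihood test). Nr1h2, Nr1h3 and Mylip had adjusted p-values between 0.625 and 0.949 in that test.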

How the data were processed

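The whole-number counts per gene symbol of 6 libraries were used as the authors deposited them, without normalization. RSEM, edgeR and build mm9 are named in the submitters' processing notes, with neither version nor role. The aligner, annotation and strand setting were not given in the sources used here. How RSEM estimates became whole numbers is not stated. Another deposited table held the CPM of the same counts, with a largest difference of 5.09e-11, and was not tested.

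Column headers give the genotype and no replicate number. Counts were filtered with filterByExpr, TMM-normalised and tested with edgeR 4.0.16 (robust quasi-likelihood fit, R 4.3.3) on the 3 XBP1-KO and 3 WT libraries. Benjamini-Hochberg adjustment ran over all 15958 genes, with a threshold of 0.05. The test was checked on simulated counts. Alternatives covered scaling, filters, DESeq2 1.42.0, limma 3.58.1 (voom), the likelihood ratio test, a term for or removal of the b libraries, and each library left out. No label sets the b libraries apart. Between libraries of 1 genotype, chi-square per degree of freedom was 22.5 to 74.5, so none was counted as a repeat. The common biological coefficient of variation was 0.25, and depth of 26946349 to 32709100 counts sets the counting error.

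The genes and lists were chosen with earlier results of these data known. The text names every gene of the set, Xbp1, the called gene or else the smallest p of each related list, and of each marker list the called members and the pair with the highest mean CPM, not divided by length. Those pairs were Cd74 and H2-Aa (dendritic cells), Klrb1c and Cd2 (T and NK), Cd79b and Ms4a1 (B), Retnlg and S100a8 (neutrophils), Kit and Cma1 (mast), C1qb and Cd68 (macrophages) and Krt19 and Krt18 (epithelial and mesothelial). The other dendritic cell markers named were chosen after their values were seen. Promoters came from RefSeq (GRCm38.p6). The search with 1 mismatch and the levels per kilobase were chosen after seeing the data.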

Additional observations from a re-analysis of the deposited data

How the results depend on the processing

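Over all genes the test called 25 higher and 46 lower. It called 13 and 12 with library size alone, 27 lower with upper quartile scaling, 61 and 191 with no filter beyond 1 count, and 84 lower with 10 counts in every library of a genotype. DESeq2 called 108 and 365, limma-voom 16 higher, the likelihood ratio test 95 and 160, and the fit that was not robust 27 lower. A term for libraries XBP1-KO b and WT b gave 93 and 333, and leaving both out gave 13 higher. The cause was not tested. Leaving out 1 library gave 4 to 32 higher and 1 to 122 lower. The counts higher and lower were 9 and 4 with XBP1-KO a left out, 32 and 122 with XBP1-KO b out, 15 and 1 with XBP1-KO c out, 15 and 23 with WT a out, 12 and 28 with WT b out, and 4 and 1 with WT c out. Of the 26 sterol genes, 1 (Cyp51) was called with no filter, with DESeq2 and with the term for the b libraries, and 0 under every other alternative run. The number lying lower was 15 to 20. The log2 ratio of the summed enzyme level ran from -0.35 to -0.15. Xbp1 kept its direction, with an adjusted p from 0.00143 to 0.301, and passed under 8 of 18 alternatives. The sterol regulatory element with 1 mismatch was found for 12 genes in both windows, against 1 gene without a mismatch. With library size alone log2 fold changes were above 0 for Sc4mol (0.040), Nsdhl (0.049), Soat1 (0.0051) and Nr1h3 (0.018), and with upper quartile scaling for Sc4mol (0.0020) and Nsdhl (0.016). Without XBP1-KO b and WT b they were 0.023 for Mvk, -0.027 for Ebp and 0.0010 for Srebf2. Leaving out 1 library turned 10 genes, with ranges of -0.18 to 0.72 for Tm7sf2, -0.11 to 0.45 for Insig1, -0.22 to 0.024 for Soat1, -0.52 to 0.15 for Nr1h3, -0.47 to 0.062 for Mvk, -0.27 to 0.089 for Sc4mol, -0.24 to 0.10 for Nsdhl, -0.084 to 0.14 for Ebp, -0.031 to 0.26 for Scap and -0.090 to 0.20 for Stard4. No paired analysis was possible because the columns carry the genotype and no replicate number. With 3 libraries of each genotype, the 95% interval included 0 for every one of these genes except Acat2, Idi1, Lss and Cyp51.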
